A study of Mus musculus with 15 samples.

Results

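The 10 genes described here belong to the bone morphogenetic protein (BMP) pathway and to the feedback loop that it turns on. They are the ligand gene Bmp4, the antagonist gene Nog, the pseudoreceptor gene Bambi, the signal-carrying SMAD gene Smad9, the inhibitory SMAD genes Smad6 and Smad7, and the 4 inhibitor of DNA binding genes Id1, Id2, Id3 and Id4. They were taken by symbol, as 10 of the 24346 genes of the authors' deposited table of FPKM values (fragments scaled by gene length and library size). RNA was sequenced from brain cells of C57BL/6 mice in 5 groups of 3 libraries. The group D0 was astrocytes, D4, D8 and D16 were cells that the labels call chemical-induced neurons, from days 4, 8 and 16, and PN was primary neurons. The series is titled for reprogramming in the living animal, whereas its design text places the induced cells in vitro. The labels give no genotype, transgene or animal age, and the inducing chemicals, the culture media and the source of the primary neurons are not given in the sources used here. The labels also do not say whether the libraries of a group came from separate cultures, so the p-values measure the spread between these libraries, which may be technical.

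BMP ligands bind pairs of receptor kinases, which phosphorylate SMAD1, SMAD5 and SMAD9. These join SMAD4 and enter the nucleus. Among the genes they switch on are the Id genes and the inhibitory Smad6 and Smad7, whose products act back on the receptors and SMADs and damp the signal. ID proteins lack a DNA-binding part and pair with E proteins, which keeps E proteins from joining the proneural factors that drive neuronal genes. In the developing brain BMP signalling favours astrocytes over neurons, and Noggin, the product of Nog, binds BMP4 outside the cell and blocks it.

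The genes lie apart in the mouse genome (GRCm38, GENCODE annotation). Bmp4 spans chromosome 14, 46383520 to 46390669 on the minus strand, Nog chromosome 11, 89300638 to 89302332 on the minus strand, and Smad9 chromosome 3, 54755582 to 54801257 on the plus strand. Smad6 spans chromosome 9, 63953076 to 64022059 on the minus strand. Id1 spans chromosome 2, 152736251 to 152737410 on the plus strand, Id2 chromosome 12, 25093799 to 25097140 on the minus strand, Id3 chromosome 4, 136143497 to 136145755 on the plus strand, and Id4 chromosome 13, 48261228 to 48266026 on the plus strand. Exons of Bmp4 overlap Gm15217 on the other strand, which reached at most 0.283 FPKM. Exons of Id4 overlap A330033J07Rik on the other strand, which reached at most 0.306 FPKM. They also overlap Gm49291 on the other strand, for which the authors' FPKM values hold no entry. Whether the counting used strand is not given in the sources used here.

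Of the 10 genes, 6 had a window of 250 bases before to 50 bases after the transcription start in the RefSeq promoter table (GRCm38.p6), namely Bmp4, Smad9, Smad6, Id2, Id3 and Id4. They were searched on both strands for GGCGCC, a GC-rich motif that SMAD1 and SMAD5 bind, for the palindromic SMAD motif GTCTAGAC, for the cyclic AMP response motif TGACGTCA and for TATAAA. None of the 4 motifs overlaps another in these windows. Whether a match bears on the level of its gene was not tested. The 4 windows that hold a match are printed, each 5′ to 3′ on the gene's strand with the match in capitals.
Smad6, chr9:64022010-64022309, minus strand: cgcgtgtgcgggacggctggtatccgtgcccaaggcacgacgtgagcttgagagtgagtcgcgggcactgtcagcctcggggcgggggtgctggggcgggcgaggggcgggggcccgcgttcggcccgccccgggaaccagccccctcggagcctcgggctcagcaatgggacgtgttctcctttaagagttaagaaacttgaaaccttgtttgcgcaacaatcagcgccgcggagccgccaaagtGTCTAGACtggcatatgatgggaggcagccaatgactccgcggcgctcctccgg
Smad9, chr3:54755332-54755631, plus strand: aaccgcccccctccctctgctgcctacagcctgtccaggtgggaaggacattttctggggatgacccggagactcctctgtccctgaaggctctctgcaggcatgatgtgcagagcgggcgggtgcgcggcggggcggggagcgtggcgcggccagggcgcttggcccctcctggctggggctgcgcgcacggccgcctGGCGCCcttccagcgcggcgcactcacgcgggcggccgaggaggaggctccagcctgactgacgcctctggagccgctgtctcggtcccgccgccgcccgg
Id2, chr12:25096043-25096342, minus strand: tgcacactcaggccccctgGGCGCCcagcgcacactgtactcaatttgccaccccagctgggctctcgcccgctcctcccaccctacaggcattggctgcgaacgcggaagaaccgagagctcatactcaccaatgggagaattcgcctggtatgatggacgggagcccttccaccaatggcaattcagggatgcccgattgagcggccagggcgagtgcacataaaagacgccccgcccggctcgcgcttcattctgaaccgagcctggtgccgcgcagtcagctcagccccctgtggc
Id4, chr13:48260866-48261165, plus strand: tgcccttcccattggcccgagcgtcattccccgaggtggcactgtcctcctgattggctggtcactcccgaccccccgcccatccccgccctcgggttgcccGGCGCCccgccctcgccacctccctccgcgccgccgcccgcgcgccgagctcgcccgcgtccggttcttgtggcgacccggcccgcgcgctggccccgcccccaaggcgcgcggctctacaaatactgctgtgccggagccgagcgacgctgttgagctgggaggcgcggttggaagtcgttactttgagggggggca
The Smad6 match to GTCTAGAC began at position -4 and ran across the start. This motif is in 0.213% of the 32851 windows in the table. GGCGCC began at -51 in Smad9, at -231 in Id2 and at -148 in Id4, and it is in 11.9% of all windows. TGACGTCA, in 1.79% of all windows, and TATAAA, in 13.6%, were in none of the 6, and Bmp4 and Id3 held no match to any of the 4 motifs. A match is a run of letters and not evidence of binding.

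Summed FPKM per library lay between 548309 and 787080, and each library had 11861 to 12907 genes at 1 FPKM or more. The deposited values give no read counts. From the steps between low values the relative depth ran from 0.71 to 2.04, with PN deepest at 1.71 to 2.04. The summed level of 8 astrocyte genes was 689 to 1606 FPKM in D0, 444 to 516 in D4, 97.3 to 114 in D8, 51.0 to 59.3 in D16 and 144 to 267 in PN. Every gene of this list had a lower mean in D4 than in D0, and Gfap, at 398 FPKM, made up most of the D4 sum. Slc1a3 averaged 189 FPKM in D0 and 6.33 in D4, and Aqp4 83.2 and 1.66. The sum of 8 neuronal genes was 281 to 393 FPKM in D0, 955 to 1001 in D16 and 3138 to 4378 in PN. Stmn2 made up most of the D0 sum, with a mean of 304 FPKM in D0 and 213 in D16. The other neuronal genes had higher means in D16 than in D0, such as Snap25 with 172 against 0.183 FPKM. D0 also carried the highest sum of 6 fibroblast and meningeal genes, 98.8 to 279 FPKM with Lum at 0, and the sum was 15.4 to 19.6 in D4, 6.14 to 18.2 in D8, 7.93 to 11.2 in D16 and 3.03 to 10.8 in PN. Col1a1 and Col1a2 made up most of the D0 sum, with means of 133 and 57.2 FPKM. Col3a1 also had its highest mean in D0, at 0.776 FPKM, whereas Dcn and Lum had theirs in PN and Pdgfra in the induced cells. The sum of 5 ependymal genes was 0.251 to 17.3 FPKM in the induced cells and PN, against 71.3 to 162 FPKM in D0 with Tmem212 at 0. Foxj1 made up most of the D0 sum, with a mean of 113 FPKM. Pifo and Dynlrb2 were also highest in D0, while Ccdc153 averaged 0.340 FPKM in D0 and 2.12 in D4. The sums for 6 oligodendrocyte genes were 4.98 to 38.9 FPKM in the induced cells and PN, against 50.7 to 94.0 FPKM in D0 with Mog at 0. Of these genes Olig2 had its highest mean in D0, at 72.4 FPKM, and the others had theirs in PN or D16. The sum of 5 mural genes was 8.33 to 13.4 FPKM in D0 and 1.46 to 4.29 FPKM in the other groups. Pdgfrb and Cspg4 had their highest means in D0, whereas Rgs5, Kcnj8 and Abcc9 had theirs in the induced cells. In RNA from whole cultures, fewer cells of a type and less RNA per cell cannot be told apart, and the part of these other cell types in the differences from D0 was not tested. The sums of 6 endothelial genes stayed at or under 11.6 FPKM and of 6 microglial genes at or under 6.55 FPKM in every library.

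Among the 10 genes, 2 libraries stood apart from their groups. D16 replicate 2 had low Id1 and Id3, at 105 and 68.6 FPKM, although its sums for the 8 marker lists lay within or near those of the other D16 libraries. PN replicate 3 had high Id1 and Id3, at 41.0 and 58.5 FPKM. Its fibroblast and meningeal sum was 10.8 FPKM, against 4.66 and 3.03 FPKM in the other PN libraries. Of this, 4.19 FPKM came from the single gene Pdgfra, which was under 0.07 FPKM in the others. Its ependymal sum was 17.3 FPKM, against 5.30 and 8.37 FPKM, and 15.4 FPKM of it came from Foxj1. Its oligodendrocyte sum was 16.4 FPKM, against 10.3 and 13.2 FPKM. Its endothelial sum was 4.75 FPKM, against 0.970 and 0.776 FPKM, but 4.19 FPKM of it came from the single gene Kdr, and the endothelial marker Cldn5 was at most 0.166 FPKM in any PN library. For PN replicate 3 the astrocyte sum was 221 FPKM, against 144 and 267 FPKM, and the mural sum 2.73 FPKM, against 2.39 and 1.46 FPKM. Its microglial sum was 2.30 FPKM, against 3.79 and 6.55 FPKM, and its neuronal sum 3138 FPKM, against 3861 and 4378 FPKM. The part of astrocytes, fibroblast, meningeal, ependymal, oligodendrocyte or other cells in its Id1 and Id3 levels was not tested. For Id1 and Id3, results that rest on either library are given with and without it. PN replicate 3 was also the highest PN library for Bmp4 and Smad6, at 0.649 and 0.869 FPKM. The calls of both genes in PN against D0 and in D16 against PN held in all 24 alternatives.

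**Figure D1:**
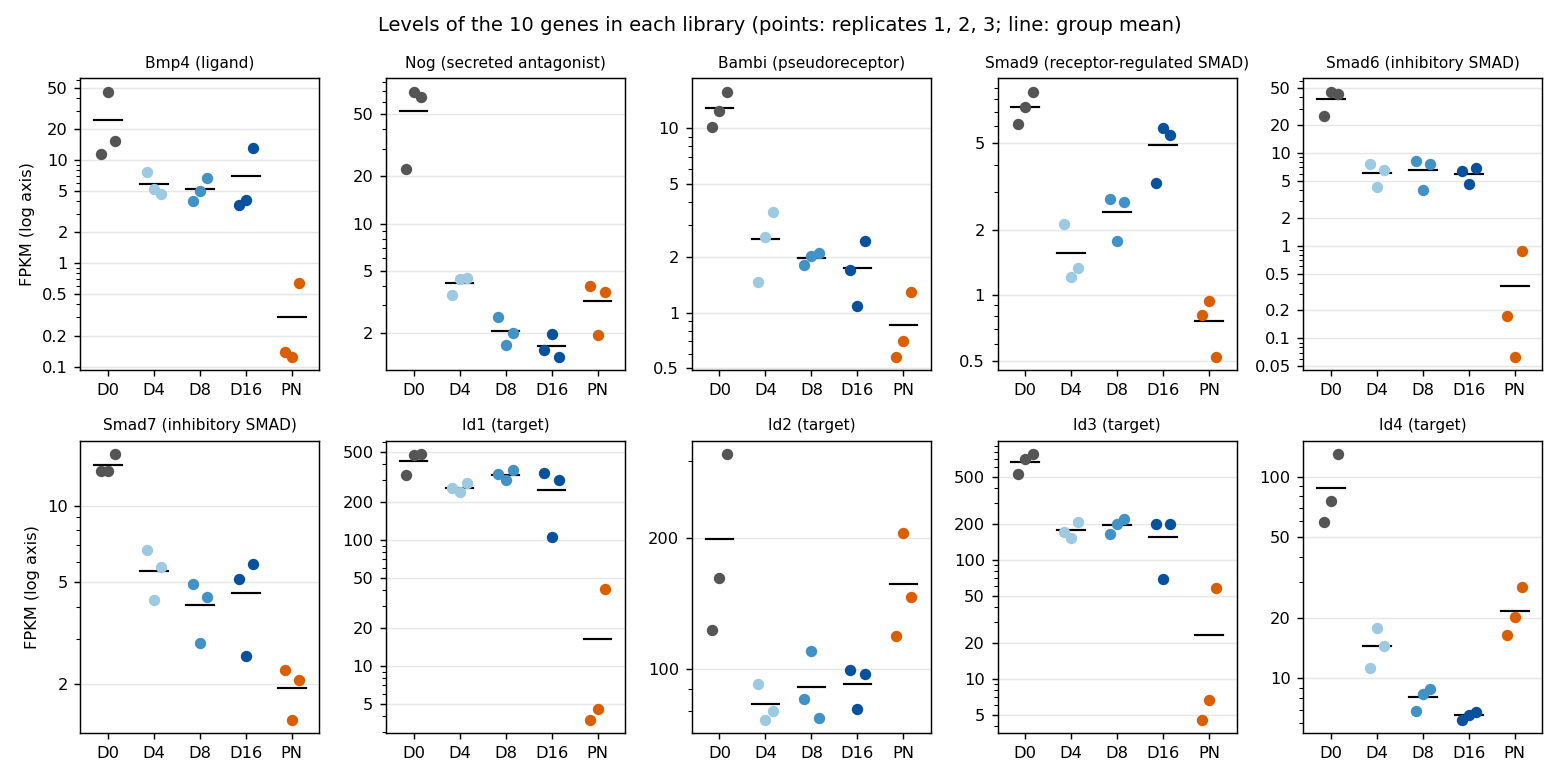
FPKM on log axes for each of the 10 genes in every library of D0, D4, D8, D16 and PN; points are libraries and the line is the group mean. Every gene has its highest group mean in D0, and Id2 is the one gene whose PN libraries overlap those of D0.

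The ligand gene Bmp4 was lower in the induced cells than in astrocytes and under 1 FPKM in primary neurons. It had 11.6, 46.1 and 15.5 FPKM in D0, 7.66, 5.25 and 4.74 in D4, 4.05, 5.03 and 6.74 in D8, 3.70, 4.16 and 13.1 in D16 and 0.138, 0.124 and 0.649 in PN. D0 replicate 2 stood far above the other astrocyte libraries, and D16 replicate 3 reached into the D0 range. On the log2(FPKM + 1) scale, in a limma fit over all 15 libraries with p-values adjusted by Benjamini-Hochberg over 13983 genes, Bmp4 fell in D4 (log2 change -1.66 ± 0.45, adjusted p = 0.0057). It also fell in D8 (-1.79 ± 0.45, adjusted p = 0.0029), in D16 (-1.61 ± 0.45, adjusted p = 0.0055) and in PN (-4.06 ± 0.45, adjusted p = 1e-06). Errors are standard errors throughout the fitted changes, and "rose" and "fell" stand for an adjusted p below 0.05 with an absolute log2 change of at least 1. Without D0 replicate 2 the changes were -1.09 (adjusted p = 0.032) in D4, -1.22 (adjusted p = 0.016) in D8 and -1.05 (adjusted p = 0.033) in D16.

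The gene of the BMP4 antagonist Noggin, Nog, had the largest fitted falls of the 10 genes in D4, D8 and D16. It had 22.2, 69.7 and 64.6 FPKM in D0, 3.52, 4.41 and 4.51 in D4, 2.51, 1.67 and 1.998 in D8, 1.56, 1.95 and 1.40 in D16 and 3.96, 1.94 and 3.63 in PN. All D0 libraries lay above all others, and the D4, PN and D8 levels overlapped as neighbours in the order of means. The mean was 12.6-fold lower in D4 than in D0, 25.3-fold lower in D8 and 31.8-fold lower in D16. The fitted changes were -3.21 ± 0.33, adjusted p = 1.4e-06, in D4, -3.97 ± 0.33, adjusted p = 1.1e-07, in D8, -4.18 ± 0.33, adjusted p = 5.1e-08, in D16, and -3.55 ± 0.33, adjusted p = 1.7e-07, in PN. On the FPKM scale, which is per length of gene, the ratio of Bmp4 to Nog within a library was 0.522, 0.662 and 0.240 in D0, 2.18, 1.19 and 1.05 in D4, 1.61, 3.02 and 3.37 in D8, 2.36, 2.13 and 9.34 in D16 and 0.0347, 0.0639 and 0.179 in PN. Bmp4 was below Nog in every D0 and PN library and above it in every library of the induced cells. These ratios are descriptions and carry no test.

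Bambi encodes a receptor-like protein without a kinase domain that blocks BMP and TGF-beta receptors. It had 10.2, 12.5 and 15.8 FPKM in D0, 1.46, 2.58 and 3.54 in D4, 1.83, 2.02 and 2.11 in D8, 1.71, 1.09 and 2.44 in D16 and 0.576, 0.704 and 1.30 in PN. D0 stood above all other groups without overlap, and the ranges of D4, D8, D16 and PN overlapped step by step. Bambi fell in D4 (-1.996 ± 0.24, adjusted p = 7.8e-06), D8 (-2.19 ± 0.24, adjusted p = 2.1e-06), D16 (-2.34 ± 0.24, adjusted p = 9.3e-07) and PN (-2.90 ± 0.24, adjusted p = 5.6e-08).

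Smad9 encodes one of the 3 SMADs that carry the BMP signal, and its mean level in D16 was 0.663 times that in astrocytes. It had 6.12, 7.39 and 8.65 FPKM in D0, 2.13, 1.21 and 1.34 in D4, 2.77, 1.77 and 2.69 in D8, 3.30, 5.91 and 5.48 in D16 and 0.815, 0.940 and 0.520 in PN. The D16 libraries lay above those of D4 and D8 and just under those of D0. Smad9 fell in D4 (-1.72 ± 0.22, adjusted p = 1e-05), in D8 (-1.30 ± 0.22, adjusted p = 0.00011) and in PN (-2.25 ± 0.22, adjusted p = 2.3e-07). In D16 its change was -0.53 ± 0.22, adjusted p = 0.045, short of the size that a call needs. Between D16 and D8 the mean was 2.03-fold higher in D16 (0.77 ± 0.22, adjusted p = 0.19), which did not pass the test.

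The genes of both inhibitory SMADs fell in every group set against astrocytes. SMAD6 acts mainly on BMP signalling, and SMAD7 on both the BMP and the TGF-beta branch. Smad6 had 25.3, 45.8 and 42.8 FPKM in D0, 7.57, 4.30 and 6.56 in D4, 8.16, 3.99 and 7.67 in D8, 6.32, 4.62 and 6.87 in D16 and 0.175, 0.0631 and 0.869 in PN. It formed 3 levels that did not overlap, D0 above the 3 induced groups and these above PN. It fell in D4 (-2.43 ± 0.30, adjusted p = 7.5e-06), D8 (-2.36 ± 0.30, adjusted p = 7.1e-06), D16 (-2.46 ± 0.30, adjusted p = 4e-06) and PN (-4.83 ± 0.30, adjusted p = 1.8e-09). Smad7 had 13.7, 13.6 and 15.9 FPKM in D0, 6.67, 4.24 and 5.72 in D4, 4.92, 2.90 and 4.38 in D8, 5.14, 2.58 and 5.90 in D16 and 2.27, 1.45 and 2.07 in PN. Its D0 libraries were the most even of the 10 genes and lay above all others. It fell in D4 (-1.25 ± 0.24, adjusted p = 0.00051), D8 (-1.62 ± 0.24, adjusted p = 4e-05), D16 (-1.53 ± 0.24, adjusted p = 6.2e-05) and PN (-2.40 ± 0.24, adjusted p = 4e-07). The FPKM ratio of Smad6 to Smad7 was 1.85 to 3.36 in D0, 1.01 to 1.15 in D4, 1.37 to 1.75 in D8, 1.16 to 1.79 in D16 and 0.0436 to 0.419 in PN. Smad6 was thus the higher of the pair in every library but the 3 of primary neurons.

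The Id genes are the targets at the end of the pathway. Id1 was the member with the smallest changes in D4 and D8, and it fell in primary neurons. It had 327, 470.4 and 476 FPKM in D0, 256, 238 and 282 in D4, 331, 299 and 358 in D8, 338, 105 and 296 in D16 and 3.74, 4.51 and 41.0 in PN. The D8 and D16 libraries overlapped those of D0, the D4 libraries lay just below them, and PN lay far below all. Its change was -0.70 ± 0.61, adjusted p = 0.36, in D4, -0.35 ± 0.61, adjusted p = 0.65, in D8, and -0.93 ± 0.61, adjusted p = 0.20, in D16, with no call. The fit shares 1 spread per gene over all groups, which for Id1 takes in PN replicate 3 and D16 replicate 2. With both left out the adjusted p for Id1 in D4 was 0.0024 at the same change, which stayed short of 1, and the D16 change was -0.40 (adjusted p = 0.069). In PN, Id1 fell (-5.35 ± 0.61, adjusted p = 1.5e-06), and the change was -6.36 without PN replicate 3.

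Id3 had the highest level of the 10 genes in astrocytes and was lower in every other group. It had 523, 702 and 768 FPKM in D0, 171, 153 and 206 in D4, 164, 200.0 and 221 in D8, 201, 68.6 and 199 in D16 and 4.54, 6.60 and 58.5 in PN. No library of another group reached the D0 range. Id3 fell in D4 (-1.90 ± 0.64, adjusted p = 0.020), D8 (-1.75 ± 0.64, adjusted p = 0.027), D16 (-2.22 ± 0.64, adjusted p = 0.0069) and PN (-5.60 ± 0.64, adjusted p = 1.5e-06). The D4 and D8 calls were near the threshold. The D4 call was lost without D0 replicate 2 (adjusted p = 0.052), D0 replicate 3 (adjusted p = 0.059) or D4 replicate 2 (adjusted p = 0.056). The D8 call was lost without D0 replicate 2 (adjusted p = 0.065), D0 replicate 3 (adjusted p = 0.073), D8 replicate 1 (adjusted p = 0.073) or D8 replicate 2 (adjusted p = 0.054), and with no filter on low values (adjusted p = 0.053). With PN replicate 3 and D16 replicate 2 both left out the adjusted p was 2.2e-06 in D4 and 2.9e-06 in D8. The D16 change was -1.71 (adjusted p = 0.042) without D16 replicate 2, and the PN change was -6.66 (adjusted p = 1.2e-09) without PN replicate 3.

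Id4 had the largest fitted falls of the 4 Id genes in the induced cells. It had 59.5, 75.8 and 129 FPKM in D0, 11.3, 17.8 and 14.4 in D4, 6.86, 8.41 and 8.87 in D8, 6.25, 6.62 and 6.83 in D16 and 16.4, 20.2 and 28.4 in PN. D0, D4, D8 and D16 followed each other downward without overlap between neighbours, and the PN libraries overlapped D4. The mean was 6.07-fold lower in D4 than in D0, 10.9-fold lower in D8, 13.4-fold lower in D16 and 4.06-fold lower in PN. The fitted changes were -2.47 ± 0.25, adjusted p = 1.4e-06, in D4, -3.23 ± 0.25, adjusted p = 5.6e-08, in D8, -3.48 ± 0.25, adjusted p = 2.1e-08, in D16, and -1.93 ± 0.25, adjusted p = 6.5e-06, in PN.

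Id2, which neurons as well as glia are known to express, was the member with the smallest difference between primary neurons and astrocytes. It had 123, 161 and 311 FPKM in D0, 92.3, 76.4 and 79.9 in D4, 85.3, 110.1 and 77.2 in D8, 99.4, 81.0 and 97.1 in D16 and 119, 205 and 146 in PN. D0 and PN overlapped, and all 3 induced groups lay below both. Id2 fell in D4 (-1.14 ± 0.28, adjusted p = 0.0028) and in D8 (-1.02 ± 0.28, adjusted p = 0.0051). In D16 the change was -0.98 ± 0.28, adjusted p = 0.0060, just short of the size that a call needs, and in PN it was -0.26 ± 0.28, adjusted p = 0.43. Calls on Id2 turned on single libraries. Without D0 replicate 3, whose level was the highest, the change was -0.76 in D4 and -0.64 in D8, and quantile normalization gave -0.95 in D4 and -0.92 in D8. The D8 change was also short of a call without D8 replicate 1 (-0.98) or D8 replicate 3 (-0.91). The D16 change passed without D0 replicate 1 (-1.27), D0 replicate 2 (-1.08), D16 replicate 1 (-1.04) or D16 replicate 3 (-1.02).

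**Figure D2:**
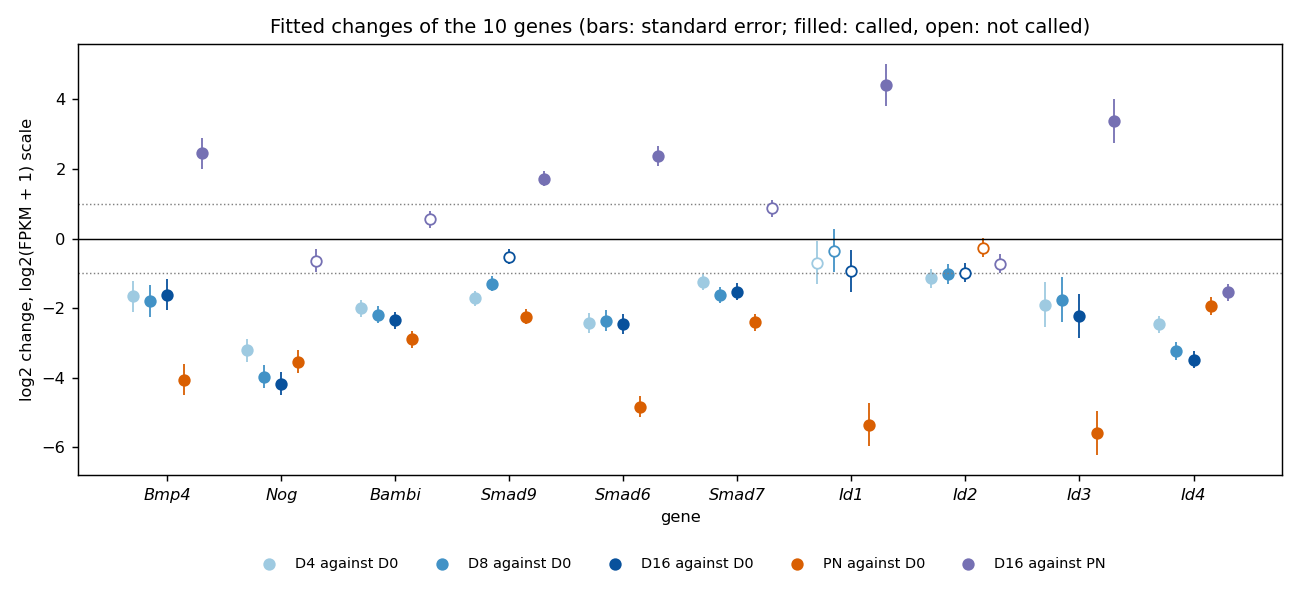
Fitted log2 changes on the log2(FPKM + 1) scale for the 10 genes, with standard errors as bars, for D4, D8, D16 and PN against D0 and for D16 against PN; filled points were called and open points were not. Changes against D0 all point down, and Id1 and Id3 have the largest positive values for D16 against PN.

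In D4 against D0, 9 of the 10 genes fell, all but Id1, and none rose. Over all 13983 genes tested, 14.2% fell in that comparison. All 10 genes were lower in every D4 library than in every D0 library, which held for 31.7% of all genes. In D8, 9 of 10 fell, again all but Id1, against 16.9% of all genes, and 9 did not overlap with D0 in that direction, against 32.8%. In D16, 7 of 10 fell, with Smad9, Id1 and Id2 not called, against 18.7% of all genes, and 8 did not overlap, against 33.8%. In PN, 9 of 10 fell, all but Id2, against 23.9% of all genes, and 9 did not overlap, against 38.5%. In these 4 comparisons the numbers of the 10 genes called were the same with D16 replicate 2 and PN replicate 3 left out together. The median log2 change of the 10 genes was -1.81 in D4, -1.77 in D8, -1.92 in D16 and -3.22 in PN. The median of all genes tested was -0.008, 0.002, -0.006 and -0.119 in the same order. These 4 comparisons share the D0 libraries. The 10 genes, like the lists below, were chosen with earlier results of these data known. The contrasts with all genes, here and below, are therefore descriptions and not tests of the set. All 10 genes passed the filter of 1 FPKM in at least 3 of the 15 libraries, Bmp4, Smad6 and Smad9 with 12 libraries at that level, Bambi with 13 and the other 6 genes with 15.

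The summed level of the 4 Id genes was highest in astrocytes, and a different Id gene led it in each kind of cell. The sum was 1032, 1409.8 and 1684 FPKM in D0, 531, 485 and 582 in D4, 587, 618 and 665 in D8, 645, 261 and 598 in D16 and 143, 236 and 274 in PN. D16 replicate 2, with the lowest induced sum, lay inside the PN range, and the other induced libraries lay between PN and D0. Id3 supplied 45.6 to 50.6% of the sum in D0 and was the largest share there. Id1 supplied 48.3 to 49.1% in D4, 48.4 to 56.3% in D8 and 40.3 to 52.5% in D16, the largest share in each induced library. Id2 supplied 82.8, 86.8 and 53.3% in PN, with the lowest share in PN replicate 3. The ratio of Id1 to Id3 within a library was 0.626, 0.670 and 0.620 in D0, 1.50, 1.56 and 1.37 in D4, 2.01, 1.50 and 1.62 in D8, 1.68, 1.53 and 1.49 in D16 and 0.823, 0.683 and 0.702 in PN. D16 replicate 2 and PN replicate 3 were within their groups on this ratio. The ratio was above 1 in every induced library and below 1 in every astrocyte and primary neuron library.

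**Figure D3:**
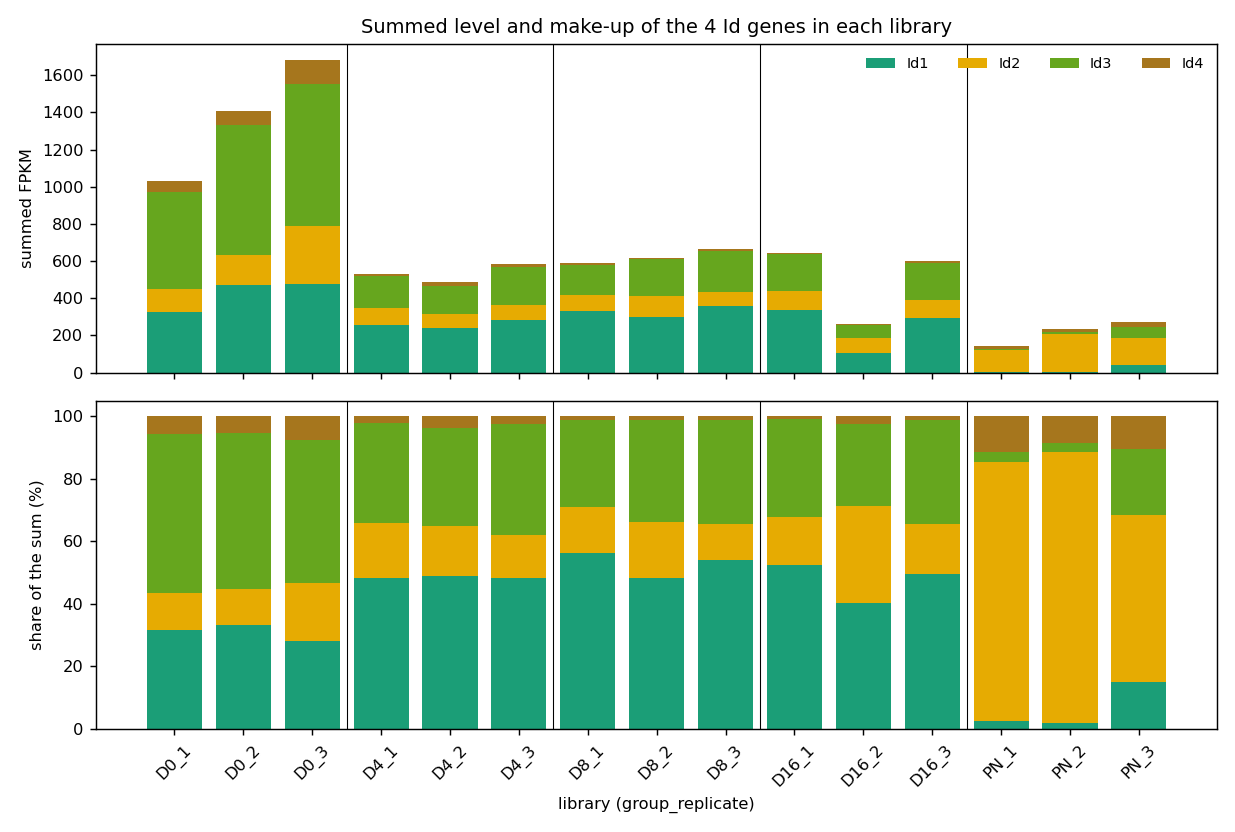
Top, summed FPKM of Id1, Id2, Id3 and Id4 stacked for each of the 15 libraries; bottom, each gene's share of that sum in percent. Id3 is the largest share in D0, Id1 in D4, D8 and D16, and Id2 in PN, where replicate 3 holds more Id1 and Id3 than the others.

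The level of the Id genes relative to the genes of their protein partners was lower in every induced and PN library than in any D0 library. The E proteins TCF3, TCF4 and TCF12 pair with proneural factors when ID proteins leave them free. The summed FPKM of the 4 Id genes over that of Tcf3, Tcf4 and Tcf12 was 7.15, 13.3 and 11.5 in D0, 5.31, 4.68 and 4.40 in D4, 5.88, 4.78 and 5.65 in D8, 4.04, 2.29 and 5.15 in D16 and 1.33, 1.72 and 1.70 in PN. The induced libraries lay between D0 and PN, with D16 replicate 2 the nearest to PN. Tcf3 averaged 43.4 FPKM in D0, 24.9 in D4, 22.2 in D8, 20.6 in D16 and 15.1 in PN. It was called lower in D16 (-1.04 ± 0.20, adjusted p = 0.00027) and PN (-1.52 ± 0.20, adjusted p = 5.5e-06), though the D16 change was -0.95 without D16 replicate 2 and -0.87 under quantile normalization, both short of a call. Tcf4 averaged 47.5, 34.1, 44.9, 60.6 and 105 FPKM in the same order, and rose in PN (1.13 ± 0.17, adjusted p = 2.4e-05), with 0.96 without D0 replicate 2. Tcf12 fell in PN (-1.33 ± 0.31, adjusted p = 0.0014) and was not called at any day.

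**Figure D4:**
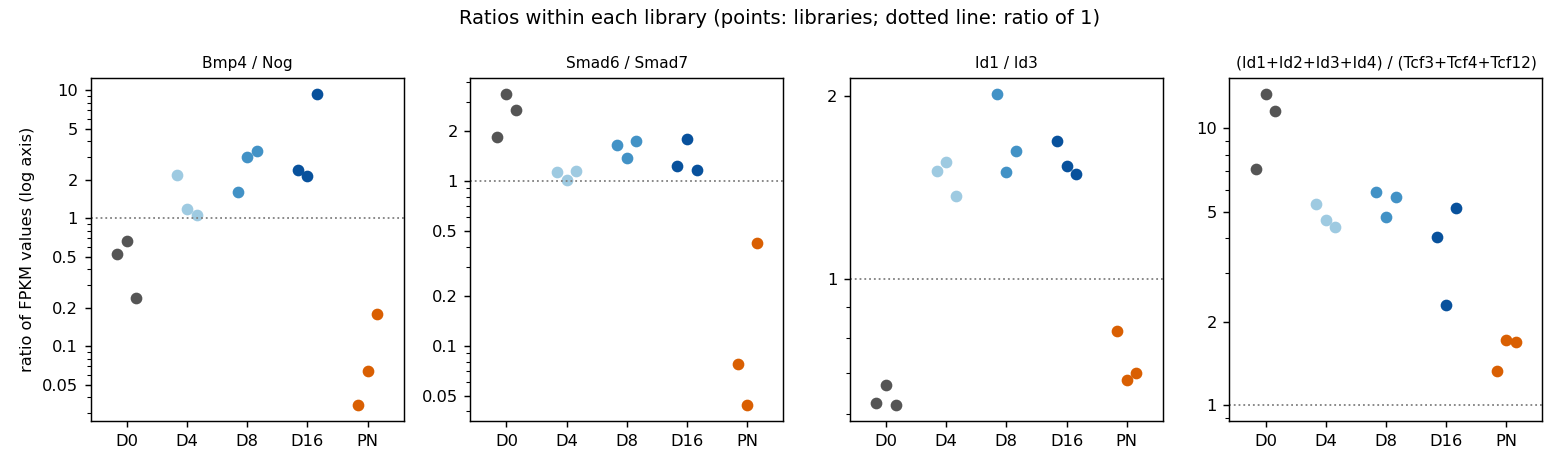
Ratios of FPKM values within each library on log axes, from left to right Bmp4 over Nog, Smad6 over Smad7, Id1 over Id3, and the summed Id genes over the summed E-protein genes; points are libraries and the dotted line marks a ratio of 1. Bmp4 over Nog and Id1 over Id3 are above 1 in the induced groups and below 1 in D0 and PN.

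Set against primary neurons, D16 cells had more Id1, Id3, Smad6, Smad9 and Bmp4 and less Id4. In D16 against PN, 5 of the 10 genes were higher in D16, where 19.6% of all genes tested were, 1 was lower, where 15% were, and 4 were not called. Id1 averaged 246 ± 124 FPKM in D16 and 16.4 ± 21.3 FPKM in PN (SD, n = 3 each), a log2 change of 4.42 ± 0.61, adjusted p = 1.7e-05. Id3 averaged 156 ± 75.7 FPKM in D16 and 23.2 ± 30.6 FPKM in PN, a log2 change of 3.38 ± 0.64, adjusted p = 0.00030. Both changes were larger with the libraries that stood apart left out, at 5.96 for Id1 and 4.95 for Id3. Smad6 averaged 5.94 ± 1.18 FPKM in D16 and 0.369 ± 0.436 in PN (2.37 ± 0.30, adjusted p = 6e-06), and Bmp4 6.99 ± 5.30 FPKM in D16 and 0.303 ± 0.299 in PN (2.45 ± 0.45, adjusted p = 0.00023). Since both were low in PN, their size depends on the pseudocount. With 0.1 in place of 1 the log2 change was 4.08 for Smad6 and 4.13 for Bmp4. Smad9 was 6.46-fold higher in D16 (1.72 ± 0.22, adjusted p = 6.2e-06).

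The member lower in D16 than in PN was Id4, which averaged 6.56 ± 0.295 FPKM in D16 and 21.7 ± 6.15 FPKM in PN (-1.55 ± 0.25, adjusted p = 8.1e-05). Id2 was lower in every D16 library than in every PN library but short of a call (-0.72 ± 0.28, adjusted p = 0.033). Smad7 was higher in every D16 library than in every PN library and also short (0.88 ± 0.24, adjusted p = 0.0056), and it passed without D16 replicate 2 (1.16) and with a pseudocount of 0.1 (1.13). Nog (-0.63 ± 0.33, adjusted p = 0.11) and Bambi (0.55 ± 0.24, adjusted p = 0.061) overlapped between the groups. Without overlap, 6 genes were higher in D16, against 35.3% of all genes, and 2 were lower, against 30%. The median log2 change of the 10 genes was 1.30, against 0.06 for all genes tested.

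From one labelled day to the next no member passed the test. In D8 against D4, 0 of the 10 genes were called by limma, where 2.01% of all genes tested were called. An unadjusted p below 0.05 was reached by 2 of the 10 and by 14.4% of all genes. The 2 were Nog (-0.75 ± 0.33, adjusted p = 0.30) and Id4 (-0.76 ± 0.25, adjusted p = 0.14), whose D8 libraries all lay below their D4 libraries. Id1 was higher in every D8 library than in every D4 library (0.35 ± 0.61, adjusted p = 0.90). Non-overlap held for 11.3% of all genes upward and 12.3% downward in that comparison. In D16 against D8, 0 of the 10 genes were called by limma, where 0.0286% of all genes tested were called. An unadjusted p below 0.05 was reached by 1 of the 10, Smad9, and by 13.1% of all genes. Smad9 was higher in each D16 library, which held for 9.24% of all genes, and Id4 lower, which held for 9.18%. A missed threshold does not show that levels were equal, and the test of D8 against D4 did not pair same-numbered libraries. The standard error of these step changes ran from 0.22 for Smad9 to 0.64 for Id3 on the log2 scale.

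Other genes of the pathway were called in both directions. Genes of each list below are named by size of change, with a few added from the counts, and counts cover the genes that passed the filter. Of all genes tested, 13.6% rose in D4, 15.5% in D8, 16.6% in D16 and 17.1% in PN, and the shares that fell are given above. Of 13 other BMP and GDF ligand genes, 8 were tested. In D4, 3 rose and 1 fell, and in both D8 and D16, 4 rose and 1 fell, while Bmp4 fell. Bmp7, a ligand that signals through the same SMADs, averaged 12.1 ± 0.929 FPKM in D4, 12.6 ± 2.92 in D8 and 11.2 ± 1.88 in D16, against 1.74 ± 0.284 in D0 (SD, n = 3 each), and rose at all 3 days (log2 change 2.26, 2.29 and 2.15). Bmp8a also rose, to 6.50 ± 2.33 FPKM in D4, 4.42 ± 1.04 in D8 and 4.59 ± 0.954 in D16, against 0.215 ± 0.149 in D0. In PN, 2 ligand genes rose and 2 fell. Bmp3 rose (1.98 ± 0.31, adjusted p = 4.6e-05), and Bmp6 fell with overlapping libraries (-2.28 ± 0.62, adjusted p = 0.0043), a call lost when D0 and PN were fitted alone (adjusted p = 0.060). The ligand that fell at each day was Gdf6, which is named as the 1 gene of its count, and it was not called in D4 or D8 without D0 replicate 1. The median log2 change of the ligand list was 0.76 in D4, 0.73 in D8, 1.18 in D16 and -0.11 in PN, beside the medians for all genes above.

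Of 11 receptor and co-receptor genes, 9 were tested, and 1 rose and 1 fell at each of D4, D8 and D16. The gene that fell was Bmpr1a, a type I BMP receptor, with 19.8 ± 1.68 FPKM in D4, 18.4 ± 1.74 in D8 and 20.9 ± 0.538 in D16, against 64.2 ± 19.99 in D0. Its log2 change was -1.61 ± 0.20, adjusted p = 7.8e-06, in D4, and -1.53 ± 0.20, adjusted p = 7.8e-06, in D16. The gene that rose was the co-receptor gene Rgmb, at about the size that a call needs (1.03 in D4, 1.02 in D8 and 1.05 in D16). It was not called without D0 replicate 2 (0.83, 0.82 and 0.85 in the same order), nor without replicate 1 or 3 of the day in question. In PN, 3 rose and 2 fell, with the type II receptor gene Acvr2a at 30.1 ± 3.81 FPKM in PN against 5.65 ± 0.651 in D0, Neo1 at 51.2 ± 6.43 FPKM in PN against 21.4 ± 4.08 in D0, and Bmpr1a again lower (-2.35 ± 0.20, adjusted p = 5.2e-08). The count that fell was 2 in D4 without D0 replicate 1 or D4 replicate 3, and 2 in D16 without D0 replicate 3. The list's median change was -0.33, -0.37, -0.07 and -0.01 in D4, D8, D16 and PN.

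Smad1 and Smad5, whose products carry the BMP signal, were not called at any day, while their inhibitors Smad6 and Smad7 fell. Of 7 genes for receptor-regulated and common SMADs and SMAD ubiquitin ligases, all tested, limma called 0 in D4, D8 and D16. In D4 2 were lower at an unadjusted p below 0.05, in D8 3 and in D16 3, and of all genes tested 30.2%, 31.9% and 33.8% were lower at that threshold in the same order. Without D0 replicate 2 or without D16 replicate 1, limma called 1 lower in D16. Smad1 averaged 15.3 ± 0.481 FPKM in D4, 15.4 ± 0.816 in D8, 15.99 ± 2.46 in D16 and 17.4 ± 3.39 in PN, against 18.3 ± 1.65 in D0, with a log2 change of -0.19 ± 0.15, adjusted p = 0.29, in D16. Smad5 averaged 18.05 ± 3.04 FPKM in D4, 17.6 ± 1.54 in D8 and 18.4 ± 1.51 in D16, against 18.4 ± 3.82 in D0, with a log2 change of 0.02 ± 0.18, adjusted p = 0.93, in D16. In PN, 2 of 7 fell. Smad3, of the TGF-beta branch, fell to 3.19 ± 0.682 FPKM in PN against 20.9 ± 4.43 in D0 (-2.38 ± 0.24, adjusted p = 4.9e-07). Smad5 fell in PN (-1.06 ± 0.18, adjusted p = 0.00011), near the size that a call needs, and was not called without D0 replicate 1 (-0.98), D0 replicate 3 (-0.96) or PN replicate 2 (-0.95), or after rescaling to an equal total (-0.93). The list's median change was -0.24, -0.23, -0.20 and -0.58 in D4, D8, D16 and PN.

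Other secreted antagonists and modulators moved in both directions in the induced cells. Of 16 listed, 14 were tested. In D4, 3 rose and 4 fell, in D8 4 rose and 5 fell, in D16 4 rose and 4 fell, and in PN 0 rose and 7 fell by limma, with 0 higher in PN at an unadjusted p below 0.05, against 29.4% of all genes. Crim1, a membrane-bound BMP binder, fell to 17.1 ± 2.03 FPKM in D16 against 68.7 ± 2.47 in D0 (-1.95 ± 0.16, adjusted p = 6.9e-08). Fstl1, of the follistatin-like family, fell to 65.2 ± 6.50 FPKM in D16 against 336 ± 113 in D0 (-2.30 ± 0.33, adjusted p = 2.2e-05), and Chrdl1, of the chordin family, fell to 2.57 ± 1.02 against 13.4 ± 3.43 FPKM (-2.02 ± 0.25, adjusted p = 5.2e-06). Sostdc1, a BMP and WNT antagonist, rose in D16 to 35.1 ± 21.7 FPKM against 4.72 ± 2.74 in D0 (2.53 ± 0.63, adjusted p = 0.0028). Chrd, Grem1 and Kcp rose in D4, D8 and D16. Chrd averaged 9.27 ± 1.54 FPKM in D4, 10.7 ± 0.772 in D8 and 9.07 ± 0.708 in D16, against 1.83 ± 0.973 in D0. These means at D4, D8 and D16 were above those of Nog. Median changes of the list were -0.10, 0.00, -0.08 and -0.92 in D4, D8, D16 and PN.

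Other transcription factor genes known as BMP targets also split. All 8 were tested, with 2 up and 2 down in D4, 3 up and 3 down in D8, 3 up and 2 down in D16, and 1 up and 5 down in PN. Atoh8, which encodes a basic helix-loop-helix factor, had a larger fitted fall than any of the 10 genes, with 2.63 ± 0.974 FPKM in D4, 1.37 ± 0.0947 in D8, 1.15 ± 0.218 in D16 and 0.706 ± 1.06 in PN, against 122 ± 2.87 in D0. Its log2 change was -5.12 ± 0.31, adjusted p = 7.5e-09, in D4, and -5.84 ± 0.31, adjusted p = 8.8e-10, in D16. Msx1, a homeobox target, rose to 7.85 ± 2.18 FPKM in D4, 14.8 ± 5.88 in D8 and 11.9 ± 7.98 in D16, against 0.813 ± 0.318 in D0 (2.63 ± 0.40, adjusted p = 4.5e-05, in D16). Its relative Msx2 was not called in the induced cells and fell in PN (-3.06 ± 0.35, adjusted p = 1.6e-06). Dlx5 rose in D8 to 1.36 ± 0.210 FPKM, in D16 to 1.80 ± 0.724 and in PN to 7.60 ± 2.05, against 0.107 ± 0.0929 in D0. The D8 call of Dlx5 was lost under quantile normalization (0.81). The count of genes up in D4 was 1 without D4 replicate 1. Median changes were 0.16, 0.24, 0.41 and -1.89 in D4, D8, D16 and PN.

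The TGF-beta branch, which shares SMAD4 and SMAD7 with the BMP branch, had 13 genes tested. In D4, 3 rose and 3 fell, in D8 2 rose and 3 fell, in D16 3 rose and 4 fell, and in PN 0 rose and 7 fell by limma, with 0 higher in PN at an unadjusted p below 0.05, again against 29.4% of all genes. Without D0 replicate 2 or without PN replicate 3, 1 rose in PN. Ltbp1, which holds latent TGF-beta in the matrix, fell to 3.32 ± 0.678 FPKM in D16 and 0.337 ± 0.210 in PN, against 34.5 ± 11.2 in D0. The ligand gene Tgfb3 fell to 5.23 ± 3.14 FPKM in D16 against 46.6 ± 25.1 in D0 (-2.90 ± 0.43, adjusted p = 2.9e-05). Tgfbr2, the gene of the type II TGF-beta receptor, fell to 0.998 ± 0.820 FPKM in PN against 19.5 ± 1.28 in D0 (-3.43 ± 0.21, adjusted p = 1.9e-09). Tgif1 fell to 1.44 ± 0.788 FPKM in PN against 41.8 ± 12.7 in D0. It also fell in D16, a call lost in 6 of 24 alternatives, such as without D16 replicate 2 (-0.83). Tgfb1 and Tgfbr3 rose in D4, D8 and D16, Tgfb1 to 97.1 ± 32.1 FPKM in D16 against 11.5 ± 5.31 in D0. Tgfb1 fell in PN. The list's median change was 0.16, 0.12, 0.22 and -1.004 in D4, D8, D16 and PN.

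**Figure D5:**
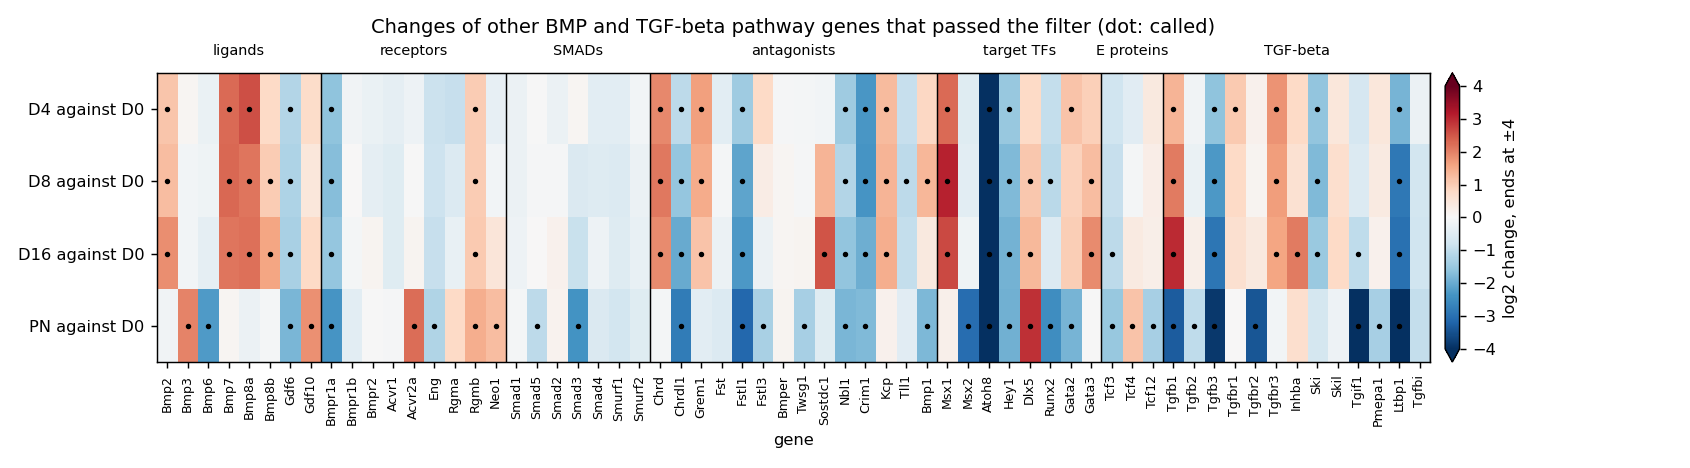
Heat map of fitted log2 changes on the log2(FPKM + 1) scale for the other BMP and TGF-beta pathway genes that passed the filter, in columns by list, with D4, D8, D16 and PN against D0 as rows; dots mark called changes and the colour scale ends at 4 in either direction. The SMAD list has no dot at D4, D8 or D16, Atoh8 is dark blue in each row, and Bmp7, Bmp8a and Msx1 are red at the 3 days.

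The genes whose levels ran most like each member over the 15 libraries were picked by Pearson's r on the log2(FPKM + 1) scale, among tested genes that reached 5 FPKM in at least 3 libraries. These r are descriptions over libraries of 5 groups that differ strongly, they were picked as the highest of many, and they carry no test. Smad6 ran most like Fkbp10 (r = 0.990), which encodes a collagen-folding chaperone and had 79.2 ± 18.1 FPKM in D0, 17.4 ± 2.46 in D4, 18.1 ± 2.41 in D8, 18.2 ± 2.33 in D16 and 3.17 ± 1.51 in PN. Id4 ran most like Lfng (r = 0.990), which encodes an enzyme that modifies Notch and had 27.5 ± 8.64 FPKM in D0, 3.99 ± 1.73 in D4, 1.46 ± 0.277 in D8, 0.793 ± 0.200 in D16 and 5.71 ± 2.91 in PN. Wnt7a (0.982) and Ddah1 (0.981) came next for Id4. Smad7 ran most like the cytokine gene Lif (0.979), Nog like Fam198b (0.979), Bambi like Bcl10 (0.978), and Bmp4 like Anxa11 (0.958). Smad9 ran most like the ephrin gene Efna5 (0.950), with 7.31 ± 2.33 FPKM in D16 and 8.33 ± 1.59 in D0. Id1 ran most like Ifitm2 (0.982) and Id3 like Ctnna1 (0.978). Id2 had the loosest match, the zinc transporter gene Slc39a12 (0.914), with means of 0.120 to 0.167 FPKM in the induced groups, against 4.58 ± 2.29 FPKM in PN and 19.8 ± 16.4 in D0.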

How the data were processed

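Total RNA was isolated with the RNeasy Plus Mini Kit and sequenced as paired-end reads of 150 bases, per the labels' protocols. The authors deposited FPKM values for 24346 symbols in 15 libraries, as 1 table whose columns all matched a sample title. The submitters' processing notes name the build mm10 (GRCm38). The aligner, the quantifier, the annotation and the use of strand are not given in the sources used here.

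FPKM values are not counts, so they were transformed as log2(FPKM + 1). Genes at 1 FPKM or more in at least 3 libraries, 13983 in number, entered a limma fit of group means over all 15 libraries with a trend of variance on mean (limma 3.58.1, R 4.3.3). Benjamini-Hochberg adjustment was made within each comparison. Calls needed an adjusted p under 0.05 together with a log2 change of 1 or more in size. The fit was tested on simulated data. Sums, ratios, motif searches and figures were made in Python 3.11.15 (numpy 2.4.6, pandas 2.3.3, matplotlib 3.10.9). Absolute depth is unknown. Relative depth came from the ratios between libraries of values up to 0.5 FPKM. Of these, 32.7 to 55.8% lay within 0.02 log2 of a ratio of small whole numbers. Evenly spread ratios gave 10.04%, without the centring on the most common ratio that was used for the data. Reads were thus not recovered.

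Named genes were all 10 members, up to 4 called genes of each pathway list with the largest change against D0, Smad1, Smad5 and the E-protein genes, and the 3 genes with the highest r to each member. The text gives each member's closest match, and all 3 for Id4. Gdf6, Chrd, Grem1, Kcp, Tgfb1 and Tgfbr3 are named outside this rule, from the counts of their lists. They are not among the named pathway genes whose calls are followed over the alternatives below. The members and lists were chosen with earlier results of these data known. Of the TGF-beta list, 1 gene is not reported here and was left out of its counts.

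Same-numbered libraries were checked as pairs by the correlation of their deviations from group means. Between D8 and D4 these were 0.329 to 0.454, against -0.497 to 0.114 for other pairs, so the numbers link those libraries. In the other comparisons they ran from -0.135 to 0.275, with none above 0.1 in all 3 pairs. As alternatives, the pseudocount was set to 0.1, the filter was dropped or raised to 5 FPKM, values were rescaled to an equal total or quantile-normalized, a replicate block was added, the 2 groups were fitted alone, the minimum change was dropped, and each library was left out in turn. Leaving out D16 replicate 2 and PN replicate 3 together was added once the data had been seen.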

Additional observations from a re-analysis of the deposited data

How the results depend on the processing

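The number of members called stayed within 1.5 times the reported number under every alternative run. It ran from 7 to 9 in D4, D8 and D16 against D0, was 9 throughout in PN against D0, ran from 6 to 8 in D16 against PN, and was 0 for both steps between days. The replicate block was an effect shared by all groups, so it could not isolate the link between D8 and D4. No paired fit of those groups alone was made. The block gave 0 calls in D8 against D4 and 0 in D16 against D8. It gave 9 in D4, 9 in D8, 7 in D16 and 9 in PN against D0, and 6 in D16 against PN, and it changed no call of a member or a named pathway gene. Of single members' values over comparisons and alternatives, 1630 kept their direction and call, 14 lost a call, 11 gained one and 25 changed sign. All sign changes were in comparisons without a call, and their cause was not tested. They came mostly with 1 library left out. Over those fits the log2 change in PN against D0 was -0.55 to 0.12 for Id2. In D8 against D4 it was -0.30 to 0.0441 for Bmp4, -0.43 to 0.0075 for Bambi, -0.13 to 0.35 for Smad6 and -0.0256 to 0.23 for Id2. In D16 against D8 it was -0.33 to 0.47 for Bmp4, -0.32 to 0.033 for Bambi, -0.38 to 0.0623 for Smad6, -0.0901 to 0.38 for Smad7, -0.0725 to 0.18 for Id2 and -0.72 to 0.0446 for Id3. In the same step, with D16 replicate 2 and PN replicate 3 both left out, Bambi was 0.0330, Smad6 0.0478 and Id3 0.0446, and at an equal total Smad6 was 0.0067. Among named pathway genes 31 values lost a call, 1384 kept theirs, and none changed sign. Counts of pathway lists, many of them of 1 or 2 genes, moved by over 1.5 times in 88 of 2352 values, 17 of these with the minimum change dropped. With a filter of 5 FPKM, 2 ligand genes were higher and 0 lower in D8 and in D16, and with a pseudocount of 0.1, 5 were higher in D4. Rescaling moved the median of all genes by over 0.1 in PN against D0 alone, by 0.109 at an equal total and 0.122 under quantile normalization. Without read counts no counting error could be given.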
